A study of Solea senegalensis with 30 samples.

Results

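Plasma small RNA of 10 female Senegalese sole (Solea senegalensis), 5 injected with kisspeptin and 5 controls, all bled 2 d after the injection, was compared. The comparison covered the miRNA names given below and their isomiRs, not every miRNA of the study. The females were taken from the 30 libraries of the study by their labels for sex, treatment and day, and no measured value entered the choice. IsomiRs are read sequences of one miRNA that differ in where they start or end, and their counts were summed to the miRNA name under which they were listed. The fish were adults of a G1 broodstock, held in tanks and injected once into the muscle, and their plasma was spun again after its first separation and showed no visible hemolysis. The kisspeptin females received the sole decapeptide KISS2-10 at 250 µg/kg, and the controls, which the labels call Untreated, received phosphate buffered saline. For each treatment, a single tank was sampled at 2 d, so the treatment and the tank cannot be told apart. Sequencing took 2 runs of 15 libraries, and which library was in which run is not labelled. The labels give a code per fish and do not say more about how the fish of a group differ, so the p-values below measure the spread between these samples. Fish are numbered here as kisspeptin females 1 to 5 and control females 1 to 5.

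The total was 47725, 91581, 129980, 57941 and 25468 counts in kisspeptin females 1 to 5 and 191846, 163635, 124752, 84252 and 52960 in control females 1 to 5. The difference of the mean log2 total was −0.88 and within the spread (two-sided exact permutation test, p = 0.143). The counts covered 152 of the 172 names and 1478 of the 2129 isomiRs analysed. These are not all names of the study, since names that sort before miR-122-3p or after miR-459, such as let-7, were not analysed here. Yet the totals above equal the microRNA read totals that the paper lists for these libraries, and why was not tested. Levels are log2 cpm, counts scaled to the same total over these names and adjusted by the trimmed mean of M values (TMM), with a prior count of 1, on which a count of 0 lies at 3.75. A count of 0 allows up to 3 counts, or between 15.6 and 118 cpm depending on the library, which covers counting error only. Among names, the common variation between fish of a group was 131%.

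MicroRNAs are short RNAs that guide Argonaute proteins to messenger RNAs, mainly by pairing of the seed, bases 2 to 8 from the 5′ end. In plasma they are carried in vesicles, lipoproteins and protein complexes, and they come from blood cells, vessel walls and solid organs. Kisspeptin is a neuropeptide that acts high in the brain, pituitary and gonad axis and stimulates the release of gonadotropins.

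The sequences below carry the results. The first set are the forms of miR-126a-3p, a miRNA of endothelial cells, that were counted in each of the 10 females. The capitals mark the seed, and the 21 nt and 20 nt forms start 1 and 2 bases later, so that their seeds differ.
miR-126a-3p, 22 nt: tCGTACCGtgagtaataatgca
miR-126a-3p, 21 nt: cGTACCGTgagtaataatgca
miR-126a-3p, 20 nt: gTACCGTGagtaataatgca
The next set are forms of miR-21, the most abundant of the names analysed. The first 3 differ at the 3′ end and share a seed, and the last has 1 more base at the 5′ end.
miR-21, 21 nt: tAGCTTATcagactggtgttg
miR-21, 22 nt: tAGCTTATcagactggtgttgg
miR-21, 23 nt: tAGCTTATcagactggtgttgga
miR-21, extended 5′ end: cTAGCTTAtcagactggtgttgg
The miR-16 forms are shown because the first sequence was listed under miR-16a in some females and under miR-16b in others.
miR-16a or miR-16b, 20 nt: tAGCAGCAcgtaaatattgg
miR-16a, 21 nt: tAGCAGCAcgtaaatattggt
miR-16b, 22 nt: tAGCAGCAcgtaaatattggag
The forms of miR-30e-5p and of miR-222a-3p show which ends were counted in which fish.
miR-30e-5p, 19 nt: tGTAAACAtccttgactgg
miR-30e-5p, 22 nt: tGTAAACAtccttgactggaag
miR-30e-5p, 23 nt: tGTAAACAtccttgactggaagc
miR-30e-5p, 24 nt: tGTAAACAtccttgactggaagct
miR-222a-3p, 23 nt: aGCTACATctggctactgggtct
miR-222a-3p, 24 nt: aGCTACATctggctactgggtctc

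Of the 123 names tested, 0 had an adjusted p under 0.05 between kisspeptin and control females (quasi-likelihood test of edgeR, Benjamini-Hochberg adjusted, 0% called). An unadjusted p under 0.05 was found for 11 names, 2 higher with kisspeptin (1.63%) and 9 lower (7.32%). Both limma-voom and DESeq2 also gave 0 names past the threshold, with 13 and 12 at an unadjusted p under 0.05. Of these, 7 with limma-voom and 4 with DESeq2 were higher, so the balance of directions differed between methods. With edgeR the 2 higher names were miR-1a-3p and miR-1623. The 9 lower names were miR-135c, miR-22b, miR-130c, miR-126a-3p, miR-16a, miR-30e-5p, miR-181a-3p, miR-214-5p and miR-147b. Over all 123 names, 63 had a positive and 60 a negative log2 fold change, with a median of 0.04. The 5 kisspeptin values lay above all 5 control values for 1 name, miR-199a-3p (0.813%), and below them for 0 names. Of the 11 names, 3 were counted in each of the 10 females, miR-126a-3p, miR-16a and miR-30e-5p, beside 46 of all 123 names. A further 4 of the 11 were at 0 in every fish of one group. Among all 123 names, 4 were at 0 in every kisspeptin female and 2 in every control female.

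**Figure D1:**
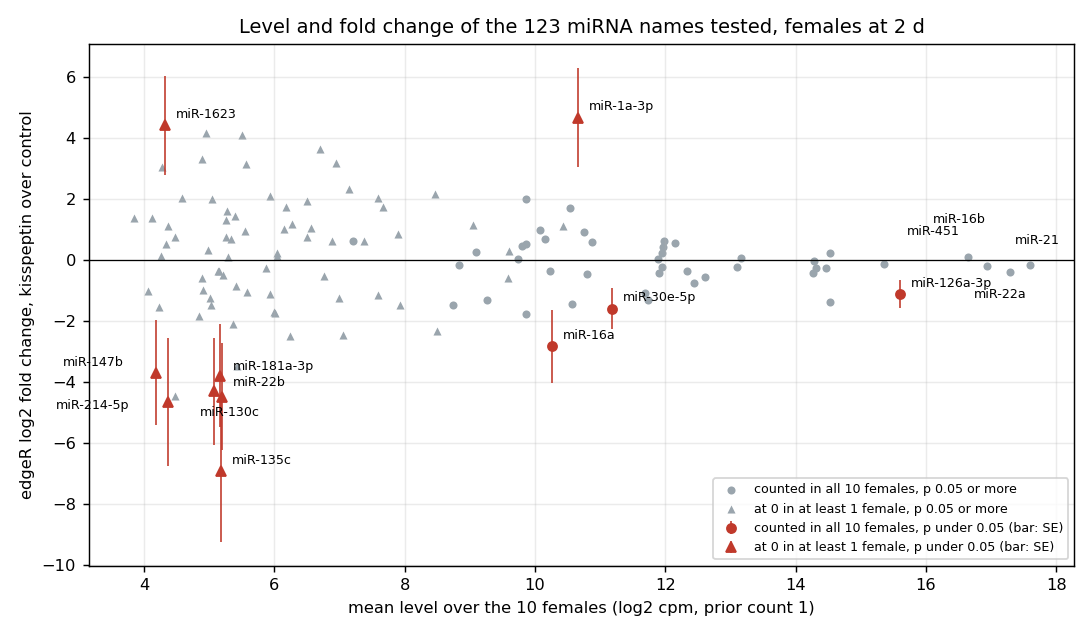
Mean level over the 10 females (log2 cpm, x axis) against the edgeR log2 fold change of kisspeptin over control females (y axis) for the 123 names tested, with red marks and standard error bars for the 11 names with an unadjusted p under 0.05. Most red marks are triangles at low levels, names at 0 in at least 1 female. So are most of the 123 names, of which 46 were counted in all 10 females. The red mark at the highest level is miR-126a-3p, at −1.10.

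Over the names analysed, the plasma profile was dominated by few miRNAs, and the groups overlapped for each of them. The 10 names with the highest mean level held 80.7% of the counts of the 10 females. In the paper a let-7 miRNA was the highest expressed, and let-7 was not analysed here. Among the names analysed the highest level was that of miR-21, which is found in most tissues. Its log2 cpm was 18.05, 18.03, 18.09, 17.99 and 15.88 in kisspeptin females 1 to 5 and 18.75, 17.93, 17.62, 18.42 and 15.16 in control females 1 to 5. The lowest fish was number 5 in both groups, the libraries in which the 22 nt form printed above was at 0. For miR-21 the log2 fold change was −0.17 (SE 0.69, adjusted p = 0.923, edgeR). The next, miR-22a, was 17.11 ± 0.08 and 17.46 ± 0.45 (SD, n = 5 each; log2 fold change −0.40, SE 0.33, adjusted p = 0.720, edgeR). For miR-16b, an abundant miRNA of red blood cells, the levels were 16.86 ± 0.09 and 17.01 ± 0.44 (SD, n = 5 each; adjusted p = 0.819, edgeR). In these 2 miRNAs the kisspeptin females lay close together, within the control range.

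The erythroid miRNA miR-451 was 16.54 ± 1.48 with kisspeptin and 16.75 ± 0.97 in controls (SD, n = 5 each; log2 fold change 0.10, SE 0.73, adjusted p = 0.937, edgeR). Its counts ran from 1344 in kisspeptin female 1 to 31342 in kisspeptin female 3, and from 3111 to 35483 in controls. The 21 nt form of miR-451, 61.6% of the name, was at 0 in kisspeptin females 1 and 5 and control females 1, 4 and 5. The lowest count of each group was in such a library, and the part of this form in the spread was not tested. The liver miRNA miR-122-5p had the widest spread of the 10, with 1074, 1831, 10108, 535 and 28 counts in kisspeptin females 1 to 5 and 3397, 5937, 685, 16391 and 3935 in control females 1 to 5. The levels overlapped over most of their range, and the log2 fold change of −1.36 (SE 1.17, adjusted p = 0.750, edgeR) ran from −2.64 to −0.09 over the alternatives, the last without control female 4. For the leukocyte miRNA miR-146a the levels were 15.34 ± 0.24 and 15.36 ± 0.66 (SD, n = 5 each; adjusted p = 0.902, edgeR). Besides miR-126a-3p, described next, the remaining names of the 10 were miR-3963, miR-15a and miR-144-5p, and their fold changes of 0.24, −0.27 and −0.27 had adjusted p values of 0.874, 0.819 and 0.826 (edgeR).

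**Figure D2:**
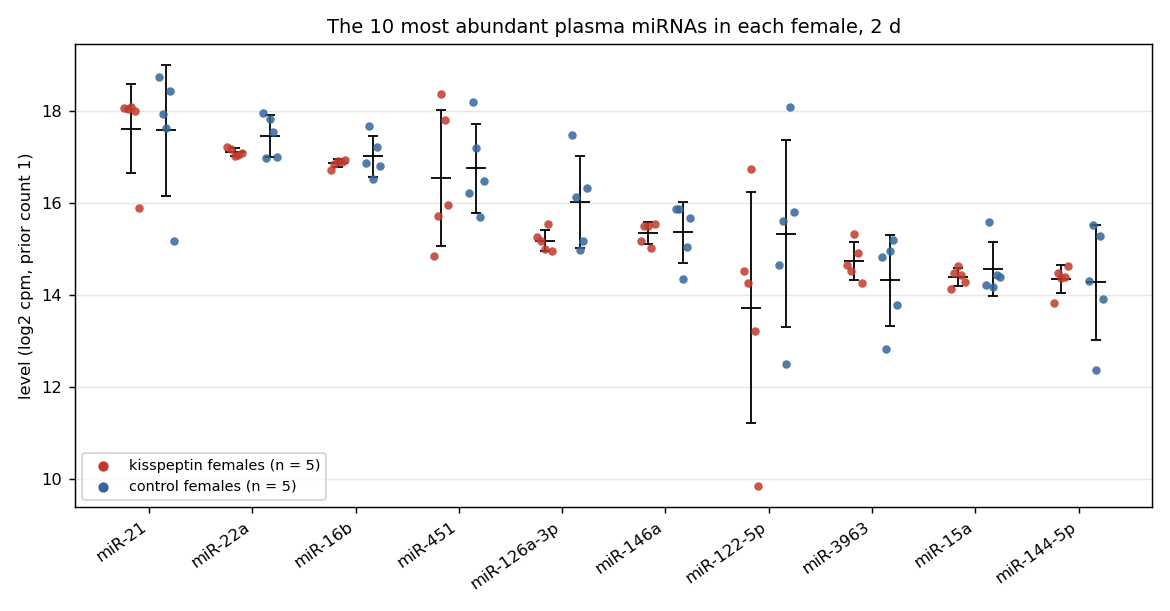
Level (log2 cpm with a prior count of 1) of the 10 most abundant miRNAs among the names analysed, in each of the 5 kisspeptin (red) and 5 control females (blue). Black marks and bars show mean and SD. The groups overlap for each of the 10, and miR-122-5p has the widest spread, from 9.85 to 18.09.

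Among names counted in each female, miR-126a-3p had the smallest p. It lies in an intron of EGFL7 in mammals and is enriched in endothelial cells, where it supports vessel integrity. It had 1776, 3418, 2998, 2683 and 981 counts in kisspeptin females 1 to 5 and 23783, 8471, 3831, 2162 and 5634 in control females 1 to 5. On the log2 cpm scale these were 15.25, 15.16, 14.99, 15.55 and 14.96 with kisspeptin and 17.47, 16.12, 14.98, 15.17 and 16.32 in controls. Control females 1, 2 and 5 were above every kisspeptin female, and control females 3 and 4 lay within the kisspeptin range. The log2 fold change was −1.10 (SE 0.46, adjusted p = 0.416, edgeR), from −1.30 to −0.57 over the alternatives with an adjusted p from 0.311 to 0.753. The smallest value, −0.57, was that without control female 1. The 22 nt form held 86.5% of the name, from 75.4% to 92.2% of it in a female, and was counted in all 10. It had a log2 fold change of −1.16 (SE 0.51, adjusted p = 0.264, edgeR). Summed over the 3 forms printed above, which hold 95.3% of the name, the log2 fold change was −0.98 (SE 0.39, adjusted p = 0.420, edgeR).

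The other names of the endothelial list, miR-126a-5p and miR-126b, were at low counts. The passenger arm miR-126a-5p had 21, 0, 0, 4 and 0 counts in kisspeptin females 1 to 5 and 197, 18, 2, 0 and 7 in control females 1 to 5, with a log2 fold change of −1.74 (SE 1.58, adjusted p = 0.768, edgeR). Control female 1 held most of its counts, and without it the log2 fold change was 0.62. For miR-126b the log2 fold change was −0.96 (SE 1.43, adjusted p = 0.819, edgeR).

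A member of the miR-30 family, miR-30e-5p, had 37, 119, 188, 71 and 57 counts in kisspeptin females 1 to 5 and 887, 374, 224, 183 and 471 in control females 1 to 5. Its log2 cpm was 9.69, 10.33, 11.00, 10.32 and 10.86 with kisspeptin and 12.72, 11.62, 10.90, 11.61 and 12.75 in controls, so that 4 of the 5 controls were above every kisspeptin female. The log2 fold change was −1.59 (SE 0.67, adjusted p = 0.416, edgeR) and stayed between −1.89 and −1.36 over the alternatives (adjusted p from 0.311 to 0.663). Its counts were spread over forms that differ at the 3′ end, and none of these was counted in all 10 females. The 24 nt form had 406 counts in control female 1 and 201 in control female 5 and was at 0 in the other 8 females, and the 23 nt form was counted in kisspeptin females 2, 3 and 5 and control females 3 and 4 only. Of the miR-30 family, 1 of 6 names tested was higher and 5 were lower, with a median of −0.42, and miR-30d had a log2 fold change of −0.22 (adjusted p = 0.922, edgeR).

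For miR-16a the fold change moved with the name under which one sequence was listed. The name had 25, 89, 63, 23 and 23 counts in kisspeptin females 1 to 5 and 76, 139, 1245, 629 and 56 in control females 1 to 5, with a log2 fold change of −2.83 (SE 1.18, adjusted p = 0.416, edgeR). The counts of control females 3 and 4 were mostly the 20 nt sequence printed above, with 1096 and 597 counts under miR-16a. The same sequence was listed under miR-16b in kisspeptin females 1, 4 and 5 (293, 417 and 201 counts) and control female 2 (1598 counts), and was at 0 under both names in the other 4 females. The 21 nt form of miR-16a, counted in every female, had 25, 89, 61, 20 and 20 counts with kisspeptin and 53, 127, 86, 28 and 56 in controls, and its log2 fold change was −0.03 among isomiRs counted in all females (SE 0.77, adjusted p = 0.991, edgeR). Summed over miR-16a, miR-16b and miR-16c the log2 fold change was −0.15 (SE 0.33, adjusted p = 0.864, edgeR).

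**Figure D3:**
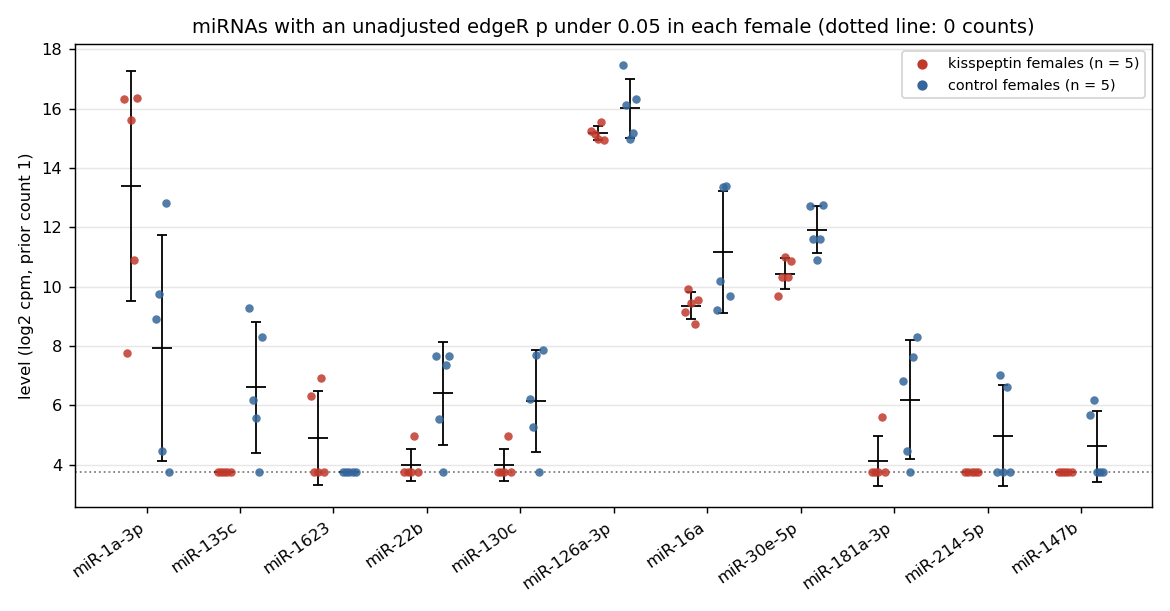
Level (log2 cpm with a prior count of 1) in each of the 5 kisspeptin (red) and 5 control females (blue) of the 11 names with an unadjusted edgeR p under 0.05, ordered by p, with mean and SD in black and 0 counts as a dotted line. In miR-126a-3p, miR-16a and miR-30e-5p all females have counts, whereas the low names have many fish on the dotted line.

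The remaining lower names had few counts. The first, miR-135c, was at 0 in the 5 kisspeptin females and had 80, 7, 4, 0 and 21 counts in control females 1 to 5. Pooled over the fish of each group, with a floor of 3 counts, its level was at least 21.3-fold lower with kisspeptin. Such a bound allows for counting error at 0 only and not for the spread between fish. Of the 112 control counts, 80 were those of control female 1. The fit over single fish gave an adjusted p of 0.416 (edgeR). For miR-22b, which shares its seed with miR-22a, the counts were 0, 0, 0, 1 and 0 with kisspeptin and 25, 4, 0, 9 and 13 in controls. miR-130c had 0, 0, 0, 1 and 0 counts with kisspeptin and 8, 3, 23, 0 and 15 in controls. Kisspeptin female 4 was the only one of its group with a count for either, and 1 control of each was also at 0 (adjusted p = 0.416 for both, edgeR). For miR-181a-3p the counts were 0, 0, 0, 2 and 0 with kisspeptin and 13, 1, 0, 11 and 21 in controls (adjusted p = 0.495, edgeR). Both miR-214-5p and miR-147b were at 0 in the kisspeptin females and in most controls. In control females 1 to 5 the first had 0, 14, 0, 5 and 0 counts and the second 5, 7, 0, 0 and 0 (adjusted p = 0.495 for both, edgeR). Pooled in the same way, miR-214-5p and miR-147b were at least 3.62-fold and at least 2.28-fold lower, again without the spread between fish. The kisspeptin libraries were also smaller, with a median total of 57941 against 124752 counts, and the part of depth in these zeros was not tested.

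Of the 2 higher names, miR-1a-3p, a skeletal and heart muscle miRNA, had 3763, 19, 4670, 106 and 2566 counts in kisspeptin females 1 to 5 and 61, 102, 1, 426 and 0 in control females 1 to 5. Kisspeptin females 1, 3 and 5 were above all controls and females 2 and 4 were not (log2 fold change 4.67, SE 1.63, adjusted p = 0.416, edgeR). Over the alternatives the log2 fold change ran from 3.97 to 7.02, the last without control female 4. The adjusted p ran from 0.0536 (DESeq2) to 0.663. A single 22 nt form held 92.5% of the counts of miR-1a-3p, with 3726, 4587 and 2520 counts in kisspeptin females 1, 3 and 5 and 0 in the other 7 females. The other, miR-1623, had 3 counts in kisspeptin female 1, 6 in kisspeptin female 4 and 0 in the other 8 females (adjusted p = 0.416, edgeR). Pooled over the group it was at least 5.25-fold higher, a bound that leaves out the spread between fish. Its 17 nt read in female 1 lies within the 21 nt form of miR-214-3p. Its 18 nt read in female 4 starts with the last bases of that form. Whether these counts are pieces of miR-214-3p was not tested.

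The lists of tissue and cell type miRNAs are described by their counts, beside 63 higher and 60 lower of all 123 names. Of the liver and gut names, 4 of 4 were lower with kisspeptin (median −1.05), among them miR-192, an intestine and liver miRNA, at −0.74 (SE 0.58, adjusted p = 0.720, edgeR). Without control female 4, miR-192 was at −0.11 and miR-122-5p at −0.09. The summed level of this list was 12.32 to 16.37 with kisspeptin and 13.33 to 17.67 in controls, on the scale log2 of the summed cpm plus 1 without TMM. Of the endothelial names, 3 of 3 were lower (median −1.10), with sums of 14.49 to 15.50 and 14.65 to 16.93. Of the muscle names, 4 of 4 were higher (median 2.32), but miR-206-3p, a skeletal muscle miRNA, was at 0.04 (SE 0.98, adjusted p = 0.970, edgeR) and its sign changed in 6 of 19 alternatives. The muscle sums of 11.84 to 16.85 with kisspeptin and 10.62 to 14.11 in controls overlapped.

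The red cell list had 2 names higher and 4 lower (median −0.24), with sums of 17.15 to 18.45 with kisspeptin and 17.19 to 18.63 in controls. The ranges of the red cell sums overlapped over most of their width. Of the leukocyte names, 2 were higher and 3 lower (median −0.11), and miR-150, a lymphocyte miRNA, was at 0.64 (SE 0.80, adjusted p = 0.803, edgeR). Both myeloid names, miR-223-3p and miR-223-5p, were higher, the first at 0.57 (SE 1.07, adjusted p = 0.838, edgeR) and the second on a single count. In the smooth muscle list, miR-143-3p was at −1.30 (adjusted p = 0.771, edgeR) and miR-145 at 1.75 (adjusted p = 0.750, edgeR). The first ran from −3.07 without kisspeptin female 1 to −0.28 without control female 1, and the second reached 3.34 without control female 1. Of 8 neuronal names only miR-128 and miR-218a were tested, and both were higher (median 1.29). The first was at 2.05 (SE 1.94, adjusted p = 0.771, edgeR), and miR-218a was counted in 1 fish of each group. The defining neuronal miRNA, miR-124-3p, was at 0 in each female. The sums of the neuronal names, 8.30 to 11.57 with kisspeptin and 0 to 8.97 in controls, overlapped.

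Of the lists tied to the reproductive axis (miR-141, miR-200, miR-202, miR-212, miR-429 and miR-430), 5 of 8 tested names were higher and 3 lower, with a median of 0.45. The gonad miRNA of fish and other vertebrates, miR-202-5p, had 80, 530, 247, 156 and 75 counts in kisspeptin females 1 to 5 and 1364, 170, 269, 81 and 1153 in control females 1 to 5. Control females 1 and 5 were the highest, the other 3 controls lay in or below the kisspeptin range, and the log2 fold change was −1.07 (SE 0.95, adjusted p = 0.758, edgeR). For miR-200b-3p, a miRNA of epithelial and pituitary cells, it was −0.17 (adjusted p = 0.937, edgeR). The list of miRNAs studied in steroidogenic and follicle cells had 9 names higher and 7 lower of 16, with a median of 0.52. Its members miR-125a and miR-125b-5p were at −0.04 and 0.59 (adjusted p = 0.966 and 0.874, edgeR).

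Among stromal names, 3 of 4 were higher (median 1.55), and the sums of the list, 12.02 to 13.28 with kisspeptin and 9.50 to 11.61 in controls, did not overlap. The sum contains miR-199a-3p, the single name without overlap, at 1.99 (SE 1.16, adjusted p = 0.581, edgeR). The levels of the other stromal names overlapped, and the list was chosen with earlier results known, so the gap is no separate support. The 22 nt form of miR-199a-3p, 50.7% of the name, was at 0 in kisspeptin females 3, 4 and 5 and control females 1, 2 and 3. The cluster partner of miR-199a-3p, miR-214-3p, was at 1.12 (SE 1.08, adjusted p = 0.771, edgeR), with control female 5 at 0 counts. The lower name, miR-214-5p, was at −4.64 (adjusted p = 0.495, edgeR), with counts in control females 2 and 4 only. It was the only stromal name with an unadjusted p under 0.05 (edgeR).

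Of the remaining families, miR-15 and miR-16 had 1 name higher and 4 lower (median −0.21), and miR-23, miR-24 and miR-27 had 5 higher and 3 lower (median 0.60). Both miR-26 names were lower (median −0.39), with miR-26a at −0.36 (adjusted p = 0.902, edgeR) and miR-26b at −0.41 (adjusted p = 0.803, edgeR). The miR-125 family had 2 names higher and 1 lower (median 0.59), and the miR-181 family had 2 higher and 2 lower (median −0.30). The 1 miR-29 name tested, miR-29b, had 5 counts in kisspeptin female 5 and 7 in control female 3 and none in the other females.

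**Figure D4:**
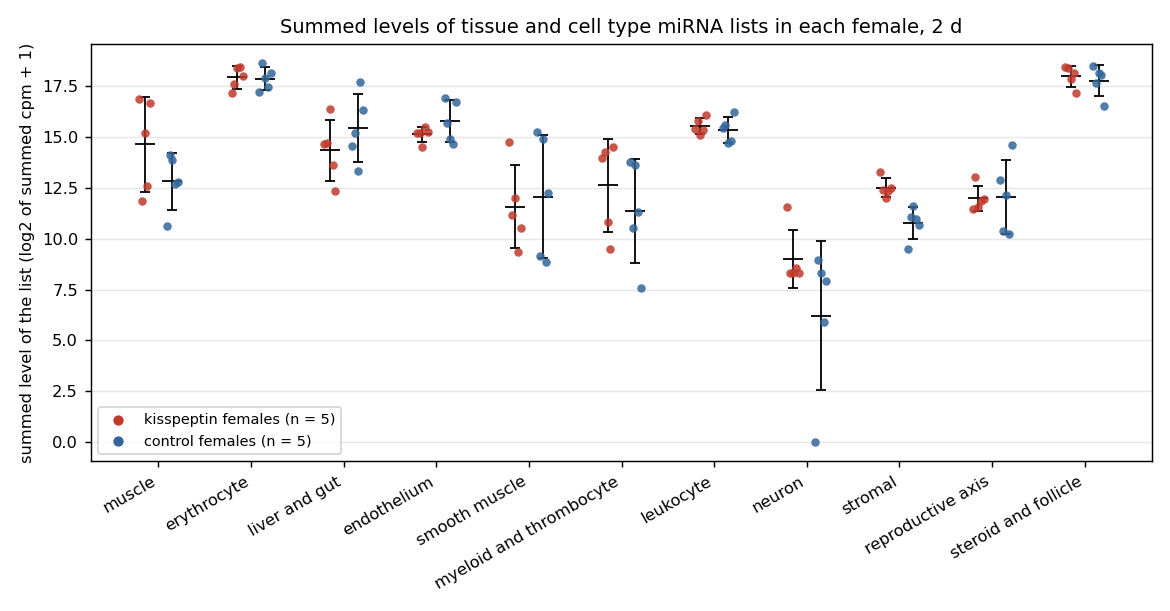
Summed level of 11 lists of tissue and cell type miRNAs (log2 of summed cpm plus 1, without TMM) in each of the 5 kisspeptin (red) and 5 control females (blue), with mean and SD in black. The stromal sums, at 12.02 to 13.28 with kisspeptin and 9.50 to 11.61 in controls, are the pair without overlap. They contain miR-199a-3p, the single name without overlap. The red cell sums cover nearly the same range in both groups.

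At the level of single sequences, 0 of 684 isomiRs had an adjusted p under 0.05 (edgeR, 0% called), with 46 at an unadjusted p under 0.05 and higher (6.73%) and 72 lower (10.5%). With the 10 females alone in the filter and the fit, 17 of 393 isomiRs had an unadjusted p under 0.05, 4 of them higher (edgeR). The other tools gave 0 (limma-voom) and 13 (DESeq2, of which 6 were higher), and edgeR without a filter on low counts gave 26, of which 15 were higher. At an unadjusted p under 0.05, limma-voom had 87 isomiRs (61 higher) and DESeq2 37 (17 higher). Of the 118 with an unadjusted p under 0.05 in the edgeR fit of 684 isomiRs, 112 (94.9%) were at 0 in every fish of one group. Among all 684 tested this share was 22.7%. All 10 with the smallest p were of this kind. Among them, the 23 nt form of miR-222a-3p was counted in control females 1, 3 and 4 only (684, 663 and 282 counts). The 24 nt form, longer by 1 base, was counted in kisspeptin females 1 and 4 only (75 and 79 counts). The 2 forms share a seed, and their fitted fold changes had opposite signs. Likewise, a form of miR-126a-3p that lacks the last 2 bases was counted in kisspeptin females 2, 3 and 4 only, with 75, 158 and 62 counts.

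Leading forms were at 0 in single libraries in which neighbouring forms were abundant. The 22 nt form of miR-21 had 9551, 20213, 20698 and 11265 counts in kisspeptin females 1 to 4 and 43347, 25737, 18127 and 18434 in control females 1 to 4. In kisspeptin female 5 and control female 5 it was at 0, beside 455 and 1197 counts of the 23 nt form. The 21 nt form was at 0 in control females 2, 4 and 5 and had between 961 and 8196 counts in the other 7 females. Summed over the 2 forms of miR-21 counted in every female, which hold 6.96% of the name, the log2 fold change was 0.20 (SE 0.23, adjusted p = 0.898, edgeR). For miR-122-5p the 21 nt form was counted in kisspeptin female 3 and control females 2, 3 and 4 and the 22 nt form in kisspeptin females 1, 2 and 4 and control females 1, 2 and 5. In kisspeptin female 5, 27 of the 28 counts of the name were the 23 nt form. The leading forms of miR-143-3p (79.0% of the name), miR-206-3p (76.9%) and miR-223-3p (83.5%) were also at 0 in females of both groups. The levels of these names in single fish thus also depend on such zeros.

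Over all isomiRs, 283 were expected to have 30 or more counts in at least 1 female from their share in the other females, and 161 of these were at 0 there, in 553 places (233 in kisspeptin and 320 in control females). The counts expected in these places were 15.0% to 69.7% of a library's total. The means were 33.9% ± 14.1 for kisspeptin and 41.6% ± 18.8 for control females (SD, n = 5 each; exact permutation p = 0.500). Of the sequences analysed, 112 were listed under 2 or more names. Why the sequences were at 0 was not tested. When only the 88 isomiRs that were counted in all 10 females were used, which make up 22 names and 46.9% of the counts, 0 names had an adjusted p under 0.05 and 1, miR-126a-3p, had an unadjusted p under 0.05 (edgeR). This restriction was chosen after the zeros had been seen.

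**Figure D5:**
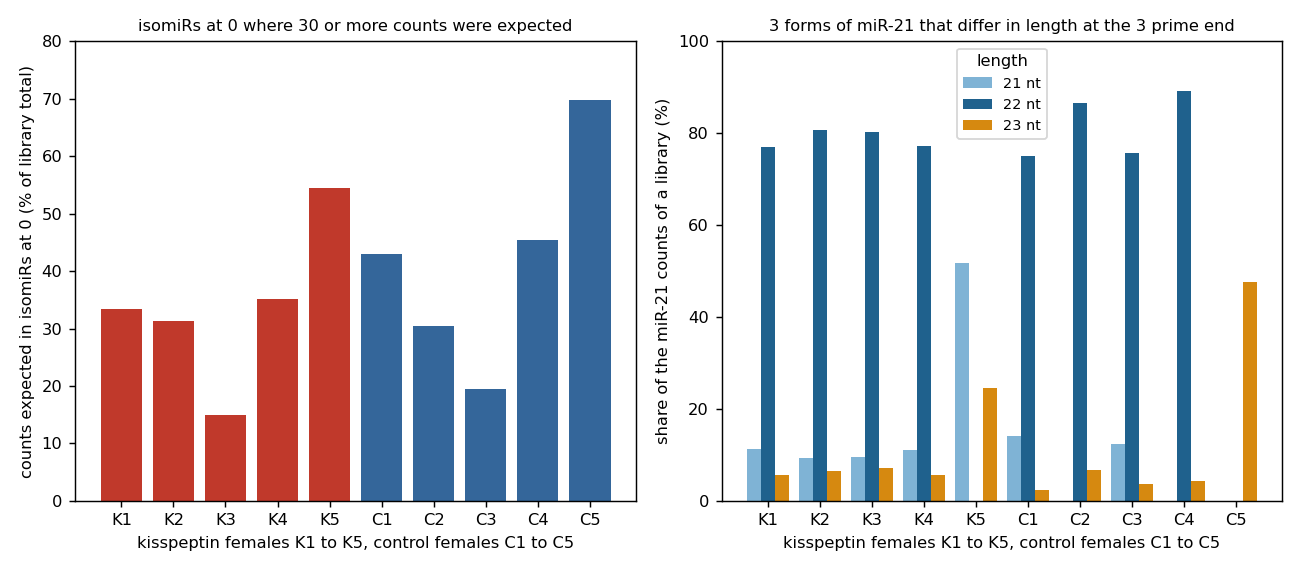
Left, counts expected in isomiRs that were at 0 where 30 or more counts were expected, as a percentage of the total of each library, for kisspeptin females K1 to K5 (red) and control females C1 to C5 (blue); right, the percentage of the miR-21 counts of each library in its 21, 22 and 23 nt forms. The bars at left run from 15.0% to 69.7% in no order by group, and the 22 nt form of miR-21 is at 0 in K5 and C5 and between 75.1% and 89.2% elsewhere.

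In 4 isomiRs (0.585%) all kisspeptin values lay below all control values, and in 0 isomiRs above them. One was the form of miR-21 with 1 more base at the 5′ end, which shifts its seed. It had 0, 0, 0, 1 and 1 counts in kisspeptin females 1 to 5 and 24, 8, 11, 16 and 16 in control females 1 to 5 (log2 fold change −3.99, SE 1.55, adjusted p = 0.251, edgeR). Over the alternatives the fold change ran from −4.69 to −3.03, and the adjusted p ran from 0.0296 (DESeq2) to 0.651. In males the same form was at 6.13, and the difference between females and males had an adjusted p of 0.180 (edgeR). Another was the 22 nt form of miR-146a, with 306, 732, 484, 453 and 291 counts with kisspeptin and 2192, 1577, 714, 642 and 883 in controls. Its level was 12.74 ± 0.30 against 13.40 ± 0.36 (SD, n = 5 each; log2 fold change −0.67, SE 0.47, adjusted p = 0.637, edgeR), while that of miR-146a as a whole differed by −0.11. The other 2 were the 19 nt form of miR-130b-3p, with 0 counts with kisspeptin and 24, 2, 4, 3 and 16 in controls, and a form of miR-3963 with 0, 0, 0, 1 and 0 counts with kisspeptin and 6, 3, 9, 10 and 3 in controls.

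Summed by seed, 0 of 271 seeds had an adjusted p under 0.05 (edgeR, 0% called), with 13 higher (4.8%) and 16 lower (5.9%) at an unadjusted p under 0.05. DESeq2 and limma-voom also gave 0 (18 and 32 unadjusted), and edgeR without a filter on low counts gave 3, TGGTCCC and AGTAGTC and GGAATGT. With the 10 females alone in the filter and the fit, 9 of 193 seeds had an unadjusted p under 0.05, 5 of them higher (edgeR). The values without overlap were those of 1 seed (0.369%), TAGCTTA, that of the extended miR-21 form, at −3.97 (adjusted p = 0.362, edgeR). Of the 5 seeds with the smallest p, all were higher with kisspeptin, and 4 were at 0 in every control female. A seed at 0 in every control female and counted with kisspeptin can only be higher, so these 4 directions were fixed in advance. The fifth, AGTAGTC, the seed of a miR-199a-3p form, was at 0 in kisspeptin female 1, had 12 or more counts in each of the other 4, and had 6 and 4 counts in control females 1 and 2 and 0 in the other controls (adjusted p = 0.362, edgeR, and 0.0232 without the filter).

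The arms of a hairpin were compared within each library as the log2 ratio of counts with a prior count of 1, so that a ratio with few counts in one arm also varies with depth. Of 14 miRNAs with both arms tested, 0 had an adjusted p under 0.05 (two-sided exact permutation test). The smallest p was that of miR-144, whose log2 ratio of 5p over 3p counts was 7.36, 6.06, 5.11, 5.70 and 3.60 in kisspeptin females 1 to 5 and 3.16, 3.69, 2.88, 3.37 and 3.42 in control females 1 to 5. Kisspeptin females 1 to 4 were above every control and female 5 was below control female 2. The highest ratio rested on 3 counts of miR-144-3p, whose counts ran from 3 to 64 with kisspeptin and from 84 to 431 in controls. The means of 5.57 ± 1.38 and 3.30 ± 0.30 differed by 2.26 (SD, n = 5 each; exact permutation p = 0.0159, adjusted over the 14 ratios 0.222). For the same hairpin, miR-144-5p differed by −0.27 and miR-144-3p by −1.77 on the edgeR log2 scale.

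Read length and isomiR composition did not differ beyond the spread between fish. Reads of 21 and 22 nt made up 77.7% ± 4.69 with kisspeptin and 76.2% ± 6.26 in controls (SD, n = 5 each; exact permutation p = 0.540). Those with a shifted 5′ end held 7.89% ± 1.89 and 8.54% ± 1.38, and those shorter at the 3′ end 15.8% ± 2.91 and 18.4% ± 3.25 (SD, n = 5 each; exact permutation p = 0.524 and 0.230). After thinning to 25468 counts, the libraries held 86.3 ± 5.82 names with kisspeptin and 85.2 ± 10.5 in controls (SD, n = 5 each; exact permutation p = 0.833). The adjusted p of the 12 such measures was at least 0.720, where 5 fish against 5 allow no raw p under 0.00794.

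As a whole, the profiles of the 123 names were separated by treatment more than by most other splits into 5 and 5 (pseudo-F 1.60, 16.7% of the variation, exact permutation test, one-sided, p = 0.0238). With the 35 names at 1 cpm or more in all 20 libraries of 2 d, the pseudo-F was 0.991, 11.0% of the variation (exact permutation p = 0.444). In the separation of the 10 female libraries, leaving out kisspeptin female 1 or 3 or control female 1 gave an exact permutation p of 0.0556, 0.0635 and 0.0635. Each of the 35 names had a count in all 20 libraries, and over them alone the treatment split did not stand out. Names at 0 in some library were not tested by themselves. Fish of the 2 groups lay about equally far from their group mean (17.04 and 17.30, exact permutation p = 0.873).

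The female differences were tested against the 6 kisspeptin and 4 control males of the same day. In the difference between the female and the male effect, 0 of 123 names had an adjusted p under 0.05 (edgeR) and 7 (5.69%) had an unadjusted p under 0.05. Both limma-voom and DESeq2 called 1 name, miR-199a-5p. With edgeR its log2 fold change was 2.34 in females and −3.75 in males, and the difference had an adjusted p of 0.20. For miR-126a-3p the log2 fold change was −1.10 in females and 0.23 in males, and the difference of −1.33 had an adjusted p of 0.613 (edgeR). For miR-30e-5p it was −1.59 and −0.16 (difference −1.42, adjusted p = 0.613, edgeR). The smallest p belonged to miR-135c, which was lower in females and higher in males (5.22) with kisspeptin (adjusted p = 0.20, edgeR). With edgeR, no name was thus shown to differ between the sexes in its response.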

How the data were processed

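Small RNA of plasma was sequenced from the 30 fish, of which 10 females were compared here. The authors deposited raw counts per isomiR, which they made by trimming reads with cutadapt (adapter, then 4 random bases per read end), aligning with Bowtie2 2.4.1 (up to 10 alignments per read) to the hairpins of miRBase 21, and counting. HTSeq 0.6.0 and cutadapt 2.1 are named in the submitters' processing notes, whereas the methods of the study name another cutadapt version. Counts of each name were summed over its isomiRs, so a sequence listed under another name in some libraries moves between names. Names at 1 cpm or more in at least 4 of the 20 libraries of 2 d were tested in edgeR 4.0.16 (R 4.3.3) by the quasi-likelihood method with TMM factors, 4 groups and Benjamini-Hochberg adjustment, and isomiRs and seeds likewise. In each of these libraries 1 count was above 1 cpm, so the filter asked only for any count in 4 libraries, males included. The fit was also run on counts simulated from the model it assumes, so that run cannot speak to the zeros described above. Single values were compared by two-sided exact permutation tests, whose smallest p is 0.00794. Libraries were thinned to 25468 counts in 100 draws. Alternatives used limma 3.58.1 (voom), DESeq2 1.42.0, other filters, other samples in the fit and leaving out each fish. The miRNAs named are the 10 with the highest level, the 10 with the smallest p, those whose groups do not overlap, and of each list the 2 with the highest level and any with an unadjusted p under 0.05. Others named, among them miR-147b, miR-126b and the miR-126a-3p and miR-122-5p forms, were chosen after their values were seen. The members and the lists were chosen with earlier results of these data known. Figures were drawn with matplotlib 3.10.9.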

Additional observations from a re-analysis of the deposited data

Results flagged for a closer look

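Among the 5 fish of a group, a single fish lay far from the other 4 in 19 of 110 sets of values examined. For values without ties chance gives about 1 in 20 sets. In 8 of the 19 the other 4 fish were tied at 0 counts, so that any count set a fish apart and this rate does not apply. Kisspeptin female 5 and control female 5 stood apart in the share of reads of 21 and 22 nt, at 69.4% and 65.1%, and in the share held by the leading isomiRs, at 50.7% and 50.8%. These are the libraries in which the 22 nt form of miR-21 was at 0. Kisspeptin female 5 was also highest in reads longer at the 3′ end, at 18.2%, and lowest in miR-21, at 15.88 log2 cpm. This miR-21 level lacks the 22 nt form and is not a separate sign, and the part of that form in the other values was not tested. Kisspeptin female 1 was highest in miR-128, at 11.59, and in miR-218a, at 6.95, both of the neuronal list, and control female 3 was highest of the controls in miR-218a, at 6.34. Control female 2 was highest in miR-15a, at 15.59, and in miR-27c, at 13.11. Kisspeptin female 3 was lowest in miR-150, at 10.55, and control female 5 was at 0 counts, or 3.75, in miR-214-3p. The other sets held a single fish with any count. These were kisspeptin female 4 in miR-130c (4.97), miR-22b (4.97) and miR-181a-3p (5.62), and kisspeptin female 2 in miR-223-5p (4.60). In miR-29b they were kisspeptin female 5 (7.46) and control female 3 (6.18). In miR-218a they were kisspeptin female 1 (6.95) with 5 counts and control female 3 (6.34) with 8 counts.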

How the results depend on the processing

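The count of names past the threshold was 0 under every alternative run. With the 2 female libraries at 0 for the leading miR-21 isomiR left out, which was chosen after seeing the data, 6 names had an unadjusted p under 0.05 (edgeR). For isomiRs, DESeq2 called 13 and edgeR without a filter 26. For seeds, edgeR without a filter called 3. For the difference between sexes, limma-voom called 1 name and DESeq2 called 1. The separation of the libraries was 0.991 with names at 1 cpm or more in all fitted libraries, and 1.37 to 1.72 when leaving out each fish. The unthinned number of names differed by −7.2, and the share of the leading isomiR of each library by −0.146. When each fish was left out in turn, differences that changed sign ran from −2.68 to 3.25 names and from −38.9 to 4.94 isomiRs in thinned libraries, from −1.27 to 3.55 percentage points at 21 and 22 nt, from −1.80 to 5.29 in the leading isomiR, from −0.269 to 3.52 for longer 3′ ends, from −1.92 to 2.52 starting with T, and from −1.22 to 0.940 in the distance to the group mean.

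The log2 fold changes of 17 miRNAs changed sign under at least 1 alternative. With limma-voom these were miR-125a at 0.048, miR-144-5p at 0.13, miR-206-3p at −1.34, miR-21 at 0.14, miR-30d at 0.13 and miR-451 at −0.13. With DESeq2, miR-125a was at 0.093, miR-146a at 0.10 and miR-21 at 0.065. Without scaling factors, miR-125a was at 0.11, miR-144-5p at 0.048, miR-146a at 0.063, miR-16b at 0.0083, miR-21 at 0.13 and miR-30d at 0.043. With names at 1 cpm in all fitted libraries, miR-125a was at 0.18, miR-144-5p at 0.0076, miR-146a at 0.11, miR-16b at 0.044, miR-21 at 0.10 and miR-30d at 0.039. With all 30 libraries in the fit, miR-125a was at 0.091, miR-146a at 0.029 and miR-21 at 0.034. With isomiRs counted in all 10 females only, miR-125a was at 0.064, miR-146a at 0.057 and miR-21 at 0.20. Without the 2 libraries at 0 for the leading miR-21 isomiR, miR-125b-5p was at −0.95, miR-181b at −0.62, miR-223-3p at −0.094 and miR-29b at −3.53. Leaving out each fish gave −0.33 to 0.35 for miR-125a, −1.22 to 1.33 for miR-125b-5p, −4.21 to 0.62 for miR-126a-5p, −0.73 to 0.072 for miR-144-5p, −0.45 to 0.0097 for miR-146a, −0.64 to 0.095 for miR-15a, −0.43 to 2.25 for miR-181b, −0.70 to 0.26 for miR-200b-3p, −2.26 to 0.64 for miR-206-3p, −0.45 to 0.12 for miR-21, −1.10 to 0.052 for miR-26a, −0.014 to 0.62 for miR-27e, −3.32 to 4.13 for miR-29b, −1.11 to 0.33 for miR-30d and −0.51 to 0.64 for miR-451. The causes were not tested. No paired analysis was run, since the groups were different fish from different tanks. Depth limits the low names, since a count of 0 allows up to 118 cpm in the smallest library.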
